A study of Homo sapiens with 12 samples.

Results

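PAX3-FKHR is the fusion protein of alveolar rhabdomyosarcoma, a childhood tumor with skeletal muscle features, and it arises from a t(2;13) translocation that joins the 5′ part of PAX3 to the 3′ part of FOXO1, the gene formerly called FKHR. The probes described here are those that the array assigns to the partner genes PAX3 and FOXO1 and to their unfused relatives PAX7, FOXO3 and FOXO4. They were chosen by gene symbol, which gave 12 probes for 5 genes among 41000 gene probes. PAX3 had 3 probes, PAX7 had 2, FOXO1 had 2, FOXO3 had 2 and FOXO4 had 3.

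The cells were human Rh30, an established alveolar rhabdomyosarcoma line that carries PAX3-FKHR, so every culture compared here held the fusion. WT was the untransfected parental line, CON was a clone stably carrying a non-targeting control shRNA, and KD1 was a clone stably carrying an shRNA against PAX3-FKHR. CON and KD1 were each a single clone, so an effect of the shRNA and a difference between clones cannot be told apart, and puromycin was given to the clones (1 μg/mL) but not to WT. Each of the 3 comparisons (KD1 vs CON, KD1 vs WT and WT vs CON) had 2 biological replicates with a dye-swap pair of 2-color arrays each, 12 arrays in all, from cells grown for 24 h. The 12 arrays used only 6 RNA extracts, so the 3 comparisons share their cultures. Of 8 markers fixed for rhabdomyosarcoma cells, 7 were well above background in all KD1 channels and 6 in all WT and CON channels, and TFAP2B was not well above background in any channel. MYOD1, the muscle regulator, was well above background throughout. Of the markers fixed for other cell types, 3 of 5 leukocyte markers (CD3E, CD14 and ITGAM) and 2 of 5 epithelial markers (KRT8 and KRT18) were also well above background in all channels of every culture. PECAM1 and VWF, 2 of 5 endothelial markers, were well above background in all channels too, and TEK was so in CON and KD1. The leukocyte marker PTPRC and the endothelial marker KDR were not well above background in any channel.

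PAX proteins bind DNA through a paired domain, and PAX3 and PAX7 act in the precursors of skeletal muscle. FOXO proteins are forkhead transcription factors held in check by insulin and AKT signaling, which drives them out of the nucleus. In the fusion, the paired domain and homeodomain of PAX3 are joined to the activation domain of FOXO1, so a probe in the early exons of PAX3 or in the last exons of FOXO1 measures the fusion transcript together with the unrearranged gene. A probe in the 3′ end of PAX3 measures only unrearranged PAX3.

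The position of each probe decides which transcript it can report, and all coordinates are those in the files, on NCBI36. Both early PAX3 probes lay in the coding sequence of the paired domain on chromosome 2, minus strand, at chr2:222867260-222868545 (A_23_P502706, which crosses an exon boundary) and chr2:222867205-222867264 (A_24_P362595). They are shown because they are adjacent pieces of the same transcript, and the capitals mark the 5 bases they share.
PAX3 A_23_P502706: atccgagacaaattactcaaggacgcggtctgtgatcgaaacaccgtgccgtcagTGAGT
PAX3 A_24_P362595: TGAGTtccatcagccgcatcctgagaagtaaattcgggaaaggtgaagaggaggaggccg
The coding probes of the unfused relatives were PAX7 A_23_P500985, which spans chr1:18902351-18934745 on the plus strand across an exon boundary, and FOXO3 A_32_P102062 at chr6:109092647-109092706 on the plus strand, near the end of the coding sequence. They are shown as the sequences that report the paralogs, with no part in capitals.
PAX7 A_23_P500985: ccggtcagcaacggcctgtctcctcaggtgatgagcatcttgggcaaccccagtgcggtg
FOXO3 A_32_P102062: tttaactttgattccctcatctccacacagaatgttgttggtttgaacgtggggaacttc

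The remaining probes are given by position only. PAX3 A_23_P209499 lay at chr2:222773025-222773084 in the 3′ untranslated part of the long PAX3 transcripts, outside the fusion. FOXO1 A_23_P151426 (chr13:40031128-40031661) and A_24_P22079 (chr13:40028709-40028768) both lay in the 3′ untranslated part on the minus strand, inside the fusion, so no FOXO1 probe measured the unrearranged gene alone and none of the 12 probes crossed the fusion junction. FOXO3 A_23_P345575 lay at chr6:109107727-109107786, PAX7 A_23_P126225 at chr1:18935128-18935187, FOXO4 A_23_P217487 at chrX:70238432-70238491 and FOXO4 A_24_P379165 at chrX:70239078-70239137, all on the plus strand. Both FOXO3 probes are also listed for FOXO3B, a near-identical copy, so their values are uncertain as a measure of FOXO3 alone. FOXO4 A_24_P911066 has no position in the files and was not well above background in any of the 24 channels, so it is not interpreted further.

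The first question was whether the knockdown was visible in the transcripts of the fusion partners. None of the 12 probes passed the threshold in any comparison by limma with Benjamini-Hochberg adjustment over all tested probes. In KD1 vs CON 0 of 8 tested probes passed, against 1.78% of all probes, and 0 had an unadjusted p below 0.05. In KD1 vs WT 0 of 9 passed, against 1.04% of all probes, and 1 had an unadjusted p below 0.05. In WT vs CON 0 of 11 passed, against 1.38% of all probes, and 0 had an unadjusted p below 0.05. A probe was tested where it was above 99% of the negative controls, in one channel or both, on every array of the comparison. The alternative fits also called 0 member probes in every comparison.

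The ratios of the probes inside the fusion nevertheless lay below 0 in both KD1 comparisons with few exceptions. Of the 4 probes inside the fusion, 3 were lower in KD1 on all 8 KD1 arrays and the other on 7 of 8. FOXO3 A_32_P102062 was also lower on all 8 and FOXO3 A_23_P345575 on 7 of 8, the same counts as for the FOXO1 probes. FOXO4 A_24_P379165 was lower on 6 of 8 and PAX3 A_23_P209499, outside the fusion, on 5 of 8. PAX7 A_23_P500985 was lower on 2 of 8 and PAX7 A_23_P126225 on 4 of 8. Among all probes tested in both KD1 comparisons, 8.36% were lower on all 8 arrays, and the 8 arrays share the 2 KD1 extracts.

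**Figure D1:**
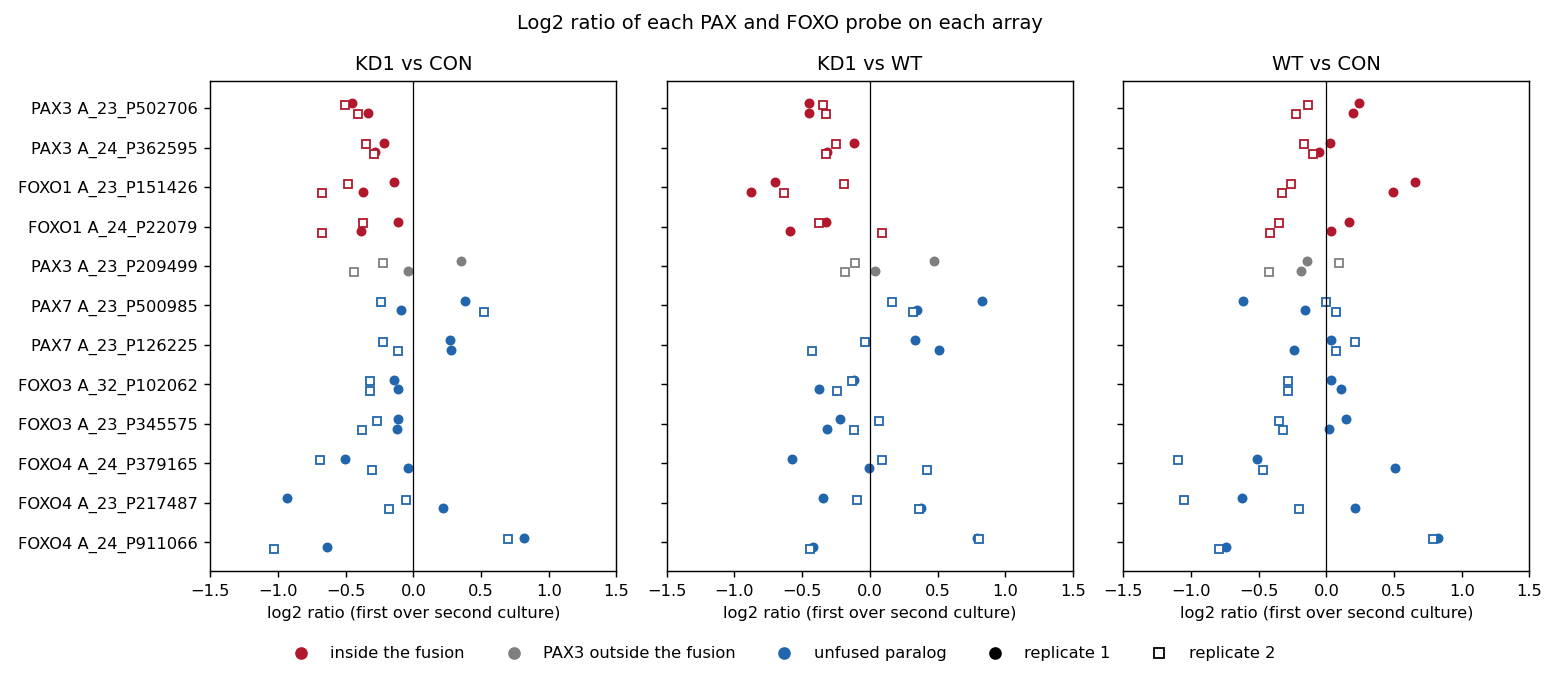
Log2 ratio of the first over the second culture (x axis) for each of the 12 probes (rows) on each array, 4 arrays per comparison, with filled circles for replicate 1 and open squares for replicate 2 and colors for the place of the probe. The red probes inside the fusion lie left of 0 in both KD1 panels except for 1 array of FOXO1 A_24_P22079 at 0.09, whereas in WT vs CON replicate 1 and replicate 2 of the same probes tend to lie on opposite sides.

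For PAX3 A_23_P502706, the brighter early probe, the log2 ratios of the KD1 vs CON arrays were -0.45 and -0.34 in replicate 1 and -0.50 and -0.41 in replicate 2. The replicate values were thus close to each other. The mean was -0.42 ± 0.04 (SD, n = 2), which is 1.34-fold lower in KD1, with a 95% interval from -0.88 to 0.04 and an adjusted p of 0.327 by limma. In KD1 vs WT the replicate values were -0.45 and -0.33, and the mean was -0.39 ± 0.08 (SD, n = 2), with an interval from -0.87 to 0.08 and an adjusted p of 0.374 by limma. Both intervals contained 0 and neither reached a 2-fold reduction, the lower bounds standing for 1.85-fold and 1.82-fold. The probe measures the fusion together with unrearranged PAX3, so these intervals do not bound the change of the fusion transcript. The paper measured PAX3-FKHR itself by RT-PCR and Western blot and reported it lower in KD1 than in CON. In WT vs CON the replicate values were 0.22 and -0.18, on opposite sides of 0.

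PAX3 A_24_P362595, the adjacent probe, gave smaller differences with the same sign. Its replicate values were -0.25 and -0.32 in KD1 against CON and -0.22 and -0.29 in KD1 vs WT. The means were -0.28 (95% interval -0.72 to 0.16, limma adjusted p = 0.503) and -0.25 (interval -0.70 to 0.20, limma adjusted p = 0.551). The brighter probe was lower than its neighbor by a mean of 0.14 in both KD1 comparisons, although they are adjacent pieces of 1 transcript. In WT vs CON the difference between them was 0.24 in replicate 1 and -0.05 in replicate 2.

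FOXO1 A_23_P151426 had the most negative mean of the 12 probes in KD1 vs WT. Its log2 ratios on the KD1 vs WT arrays were -0.70 and -0.88 in replicate 1 and -0.19 and -0.64 in replicate 2. The dye-swap arrays of replicate 2 differed more than those of replicate 1. The mean was -0.60 ± 0.26 (SD, n = 2), or 1.52-fold lower in KD1, with a 95% interval from -1.18 to -0.02, an unadjusted p of 0.043 and an adjusted p of 0.273 by limma. A share of 8.32% of all tested probes had a lower mean. In KD1 vs CON the replicate values were -0.26 and -0.58, with a mean of -0.42 (interval -0.98 to 0.14, limma adjusted p = 0.433). In WT vs CON this probe gave 0.57 in replicate 1 and -0.29 in replicate 2.

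FOXO1 A_24_P22079, farther along the same 3′ end, gave replicate values of -0.25 and -0.52 in KD1 against CON and of -0.45 and -0.14 in KD1 vs WT. Its means were -0.39 (interval -0.88 to 0.10, limma adjusted p = 0.407) and -0.30 (interval -0.80 to 0.21, limma adjusted p = 0.525). In KD1 vs WT it was higher than A_23_P151426 in both replicates, by 0.33 and 0.27 on the log2 scale.

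**Figure D2:**
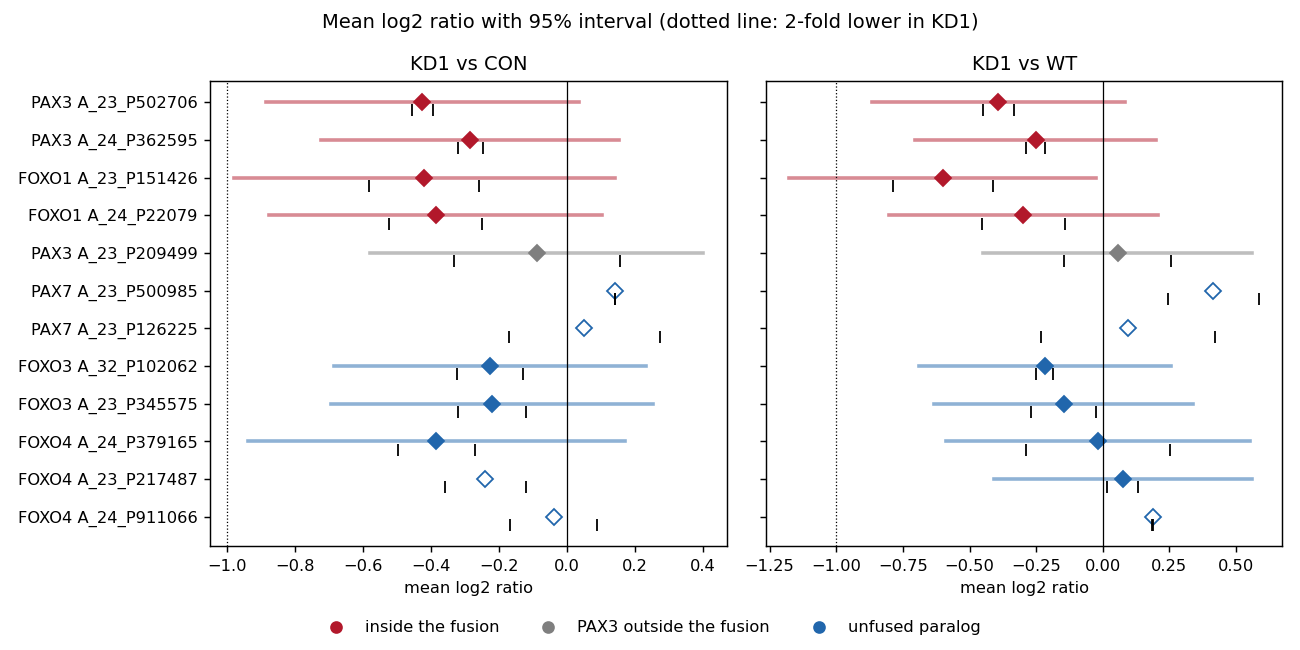
Mean log2 ratio (diamonds) of the 12 probes in the KD1 comparisons with the 95% interval of the limma fit (bars) and the replicate values (ticks), where open diamonds mark probes that were not tested in that comparison. The interval of FOXO1 A_23_P151426 in KD1 vs WT, from -1.18 to -0.02, was the only one that left out 0 before adjustment and the only one that reached the dotted line at 2-fold lower.

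The levels in the single extracts follow. For PAX3 A_23_P502706 the normalized intensity was 452 and 369 in WT, 406 and 385 in CON and 327 and 281 in KD1 (replicates 1 and 2). Both KD1 extracts were below all 4 others, and WT and CON overlapped. For PAX3 A_24_P362595 it was 330 and 305 in WT, 332 and 315 in CON and 286 and 252 in KD1, again with both KD1 extracts lowest. These were 2 of the 8 member probes tested in all comparisons, against 10.5% of all such probes. Both KD1 extracts were below both WT extracts for 4 of the 8, against 20.6% of all such probes, and below both CON extracts for 2 of the 8, against 24.6%.

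For FOXO1 A_23_P151426 the normalized intensity was 8022 and 7191 in WT, 5364 and 8753 in CON and 4791 and 5687 in KD1. KD1 was below both WT extracts but overlapped CON, because replicate 1 of CON was low and replicate 2 was the highest of all extracts. For FOXO1 A_24_P22079 KD1 was again below both WT extracts and overlapped CON, with 1452 and 1489 in WT, 1273 and 1920 in CON and 1067 and 1360 in KD1. The spread within CON was therefore at least as large as its distance from KD1 for FOXO1, but not for the early PAX3 probes. Levels of different probes are not comparable with each other. In bulk RNA a smaller share of cells with the transcript and less of it per cell cannot be told apart.

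**Figure D3:**
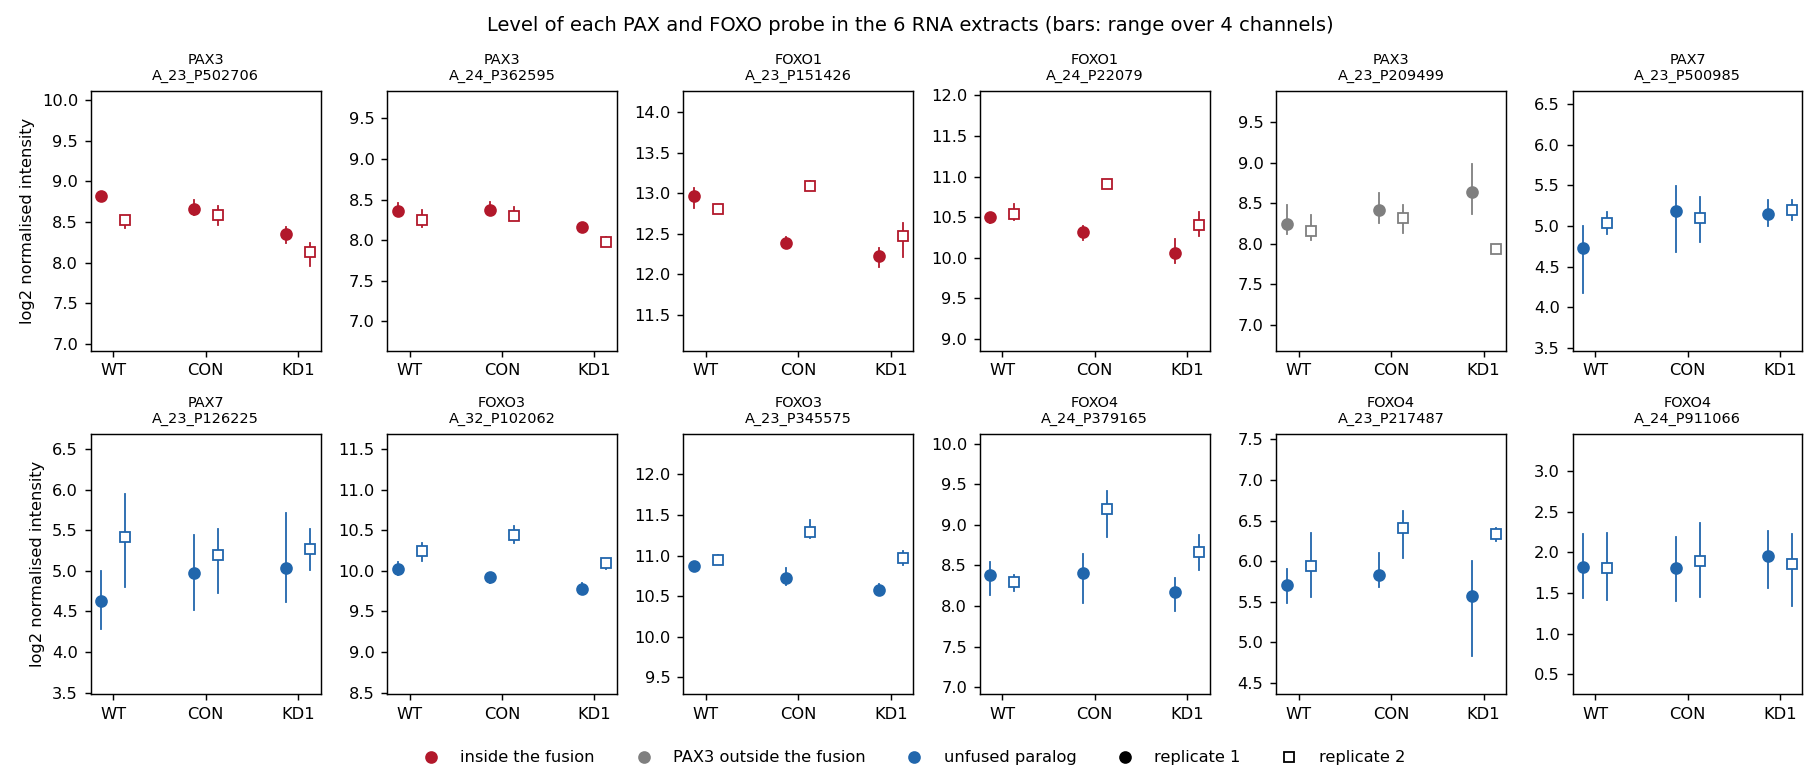
Normalized log2 intensity of each probe (y axis, with a different range but the same height in each panel) in the 6 extracts by culture, with filled circles for replicate 1, open squares for replicate 2 and bars for the range over the 4 channels of an extract. Both KD1 extracts are lowest for the early PAX3 probes, whereas replicate 2 of CON is highest for both FOXO1 and both FOXO3 probes.

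The second question was whether PAX3 outside the fusion behaved like the early PAX3 probes. PAX3 A_23_P209499 gave replicate values of 0.16 and -0.33 in KD1 against CON and of 0.26 and -0.15 in KD1 vs WT. In both comparisons the replicates were on opposite sides of 0. The means were -0.09 (interval -0.58 to 0.40) and 0.06 (interval -0.45 to 0.56), with limma adjusted p-values of 0.892 and 0.929. Its normalized intensity was 303 and 285 in WT, 340 and 318 in CON and 399 and 246 in KD1, so KD1 held both the highest and the lowest extract.

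Set against this probe within each replicate, PAX3 A_23_P502706 was lower by 0.55 and 0.12 on the log2 scale in replicates 1 and 2 of KD1 against CON, and by 0.70 and 0.19 in those of KD1 vs WT. The mean differences were -0.34 ± 0.30 and -0.45 ± 0.37 (SD, n = 2). FOXO1 A_23_P151426 was lower than the same probe by 0.41 and 0.25 against CON and by 1.04 and 0.27 against WT, with means of -0.33 ± 0.12 and -0.66 ± 0.55 (SD, n = 2). The direction was thus the same in both replicates, although PAX3 A_23_P502706 was below the outside probe on only 3 of 4 arrays of KD1 vs CON. The outside probe itself was above 0 in replicate 1 and below 0 in replicate 2 of both comparisons. For the dimmer probes the direction did not hold in every replicate: PAX3 A_24_P362595 gave -0.40 and 0.01 in KD1 against CON and FOXO1 A_24_P22079 gave -0.71 and 0.00 in KD1 vs WT. The same differences were taken for WT vs CON, where neither culture carried the targeting shRNA. For PAX3 A_23_P502706 they were 0.39 and -0.01 (mean 0.19 ± 0.28, SD, n = 2). For FOXO1 A_23_P151426 they were 0.74 and -0.13 (mean 0.30 ± 0.61, SD, n = 2). No test of these differences was run, and a two-sided exact sign-flip test on 2 replicates cannot give a p below 0.5. The part that unequal probe response has in them was not tested either.

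The third question was how the unfused relatives compared. FOXO3, which responds to the same AKT signal as FOXO1, had means below 0 in both KD1 comparisons for both probes. FOXO3 A_32_P102062 gave replicate values of -0.13 and -0.32 in KD1 against CON and of -0.25 and -0.19 in KD1 vs WT, with means of -0.22 (interval -0.68 to 0.23, limma adjusted p = 0.629) and -0.22 (interval -0.69 to 0.25, limma adjusted p = 0.633). FOXO3 A_23_P345575 gave -0.12 and -0.32 in KD1 against CON and -0.27 and -0.03 in KD1 vs WT. Both FOXO3 probes therefore had the sign of the FOXO1 probes with smaller means.

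FOXO1 A_23_P151426 was lower than FOXO3 A_23_P345575, the brighter FOXO3 probe, by 0.14 and 0.26 on the log2 scale against CON and by 0.52 and 0.39 against WT. PAX3 A_23_P502706 was lower than the same FOXO3 probe by 0.27 and 0.13 against CON and by 0.18 and 0.31 against WT. All 4 arrays of each comparison had this direction for both pairs. The dimmer FOXO1 probe A_24_P22079 was lower than FOXO3 A_23_P345575 on 3 of 4 arrays of each KD1 comparison. Its mean differences were -0.17 ± 0.05 against CON and -0.15 ± 0.05 against WT (SD, n = 2). In WT vs CON, FOXO1 A_23_P151426 was higher than that FOXO3 probe by 0.49 and 0.04. PAX3 A_23_P502706 was higher than it by 0.14 and 0.16 there. No test of these differences was run.

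FOXO4, the X-linked member, had a mean of -0.38 (interval -0.94 to 0.17, limma adjusted p = 0.471) in KD1 vs CON for A_24_P379165, from replicate values of -0.27 and -0.50. That mean was close to those of FOXO1, and the difference between FOXO1 A_23_P151426 and this probe was -0.04 ± 0.07 (SD, n = 2). In KD1 vs WT the replicate values were -0.29 and 0.25 and the mean was -0.02. Its normalized intensity was 334 and 314 in WT, 339 and 586 in CON and 287 and 404 in KD1, with replicate 2 of CON apart from the others. FOXO4 A_23_P217487 was dimmer, passed the signal limit on 2 of 4 arrays in KD1 against CON, and had a mean of 0.08 (interval -0.41 to 0.56, limma adjusted p = 0.893) in KD1 vs WT.

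PAX7, which has its own fusion with FOXO1 in a minority of these tumors, was dim. Its normalized intensity was between 25 and 43 in all 6 extracts for A_23_P126225 and between 27 and 37 for A_23_P500985. A_23_P500985 was well above background in 8 of 8 channels of every culture. A_23_P126225 was so in 7 of 8 channels of KD1 and in 8 of 8 of CON and WT. Both passed the signal limit on 3 of 4 arrays in each KD1 comparison, so neither was tested there. A_23_P500985 gave replicate values of 0.59 and 0.24 in KD1 vs WT and of 0.14 and 0.14 in KD1 against CON. A_23_P126225 gave 0.42 and -0.23 in KD1 vs WT, so the PAX7 probes did not share a direction in replicate 2.

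The comparison WT vs CON shows how far the 12 probes differ without a targeted transcript. FOXO4 A_23_P217487 had the mean farthest from 0, at -0.42 (interval -0.91 to 0.07, limma adjusted p = 0.372). For PAX3 A_23_P502706 the mean was 0.02 (interval -0.46 to 0.50) and for FOXO1 A_23_P151426 it was 0.14 (interval -0.44 to 0.72). The replicates of the FOXO1 and FOXO3 probes were all positive in replicate 1 and all negative in replicate 2. The ratio of KD1 to CON measured directly differed from the one through WT by at most 0.16 on the log2 scale over the 8 probes tested in all comparisons and the median gap was 0.05, beside 0.06 over all probes.

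None of the 12 probes met the selection criteria used in the study, which ask for a mean change of at least 2-fold in both KD1 comparisons with the same direction on every array and signal above the negative controls. Among probes with that signal, 1.38% met them.

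Of the other members of both families, 7 of 8 were on the array, and 0 of 3 tested genes passed in KD1 against CON and 0 of 4 in KD1 vs WT. PAX8, a thyroid and kidney regulator, had replicate values of 0.82 and 0.68 in KD1 vs WT and of 0.08 and 0.32 in KD1 against CON. PAX6, an eye and brain regulator, had means of 0.20 in KD1 vs WT and 0.14 in KD1 against CON. Both were positive in every replicate, and neither passed. PAX4, a pancreatic islet regulator, had replicate values of -0.52 and -0.65 against CON and of 0.18 and -0.91 against WT. For comparison, 1.96% of all genes passed for KD1 against CON, 1.26% for KD1 against WT and 1.58% for WT against CON, each gene by its brightest probe.

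Among regulators of FOXO proteins, 2 of 38 tested genes passed in KD1 against CON, both higher in KD1, and 0 of 39 passed in KD1 vs WT. The list median was 0.00 in KD1 vs CON, beside -0.02 over all genes. IRS2, an adaptor of the insulin receptor, had replicate values of 1.58 and 1.70 in KD1 against CON (limma adjusted p = 0.00889) and of 1.41 and 1.44 in WT vs CON (limma adjusted p = 0.0225). In KD1 vs WT its values were 0.17 and 0.31 (limma adjusted p = 0.581), a difference that did not pass. SGK3, a kinase related to AKT, had values of 1.70 and 0.99 in KD1 against CON (limma adjusted p = 0.0385), of 1.44 and 0.93 in WT vs CON (limma adjusted p = 0.0668) and of 0.21 and 0.10 in KD1 vs WT.

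Among FOXO target genes, 1 of 26 tested genes passed for KD1 against CON, 0 of 30 for KD1 against WT and 1 of 31 for WT against CON. IRS2, which belongs to both lists, was the gene that passed each time. The list median was 0.24 in KD1 vs WT and 0.06 in KD1 against CON, beside 0.00 and -0.02 over all genes. These medians carry no test.

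Among target genes and partners of PAX3 and PAX7, 1 of 17 tested genes passed in each KD1 comparison and 0 of 17 in WT vs CON. It was MITF, the melanocyte regulator whose promoter PAX3 binds. Its replicate values were 1.33 and 1.19 in KD1 against CON (limma adjusted p = 0.0341) and 1.14 and 1.43 in KD1 vs WT (limma adjusted p = 0.0479). MITF was thus higher in KD1 against both references, while it gave 0.12 and -0.38 in WT vs CON. The list medians were -0.11 in KD1 against CON and -0.04 in KD1 vs WT. Over 7 alternative fits the limma adjusted p of MITF was between 0.0341 and 0.135 against CON, past the threshold in 2, and between 0.0480 and 0.155 against WT, past it in 1. That of SGK3 was between 0.0384 and 0.122 against CON (past in 2), and that of IRS2 between 0.00891 and 0.0605 (past in 6). The WT vs CON call of IRS2 was kept in 4 of the 7, with a limma adjusted p of up to 0.115, and was lost without the replicate block. These 7 fits include the series table, which holds the same ratios as those tested here, so agreement there was fixed in advance.

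The genes that lie next to the members in the reference genome were compared with them, taking the 10 nearest tested genes on each side. The translocation changes this order on the fused copy. By strand, it leaves the fused part of FOXO1 next to the genes at lower coordinates. It leaves the fused part of PAX3 next to the genes at higher coordinates. The probes inside the fusion measure fused and unrearranged copies together. Around FOXO1 on chromosome 13 the 20 neighbors had a median log2 ratio of -0.05 in KD1 against CON and -0.15 in KD1 vs WT, and 15 of 20 were below 0 in KD1 vs WT. After these values were seen, the sides were looked at separately. All 10 genes at higher coordinates, from MRPS31 to AKAP11 (chr13:40201645-41795189), were below 0 in KD1 vs WT, between -0.78 and -0.14 with a median of -0.48, and 9 of 10 were below 0 in KD1 against CON with a median of -0.16. The same 10 genes were all above 0 in WT vs CON, with a median of 0.22. The 10 genes at lower coordinates had medians of 0.00 in KD1 vs WT and 0.26 in KD1 against CON. FOXO1 at -0.60 in KD1 vs WT was thus within the range of the genes at higher coordinates. It was below all those at lower coordinates, whose lowest mean was -0.24. Of the 20 neighbors, 4 had a lower mean than FOXO1 in KD1 vs WT and 2 in KD1 vs CON. The part of this stretch in the FOXO1 values was not tested, and DNA copy number was not analysed here.

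Around PAX3 on chromosome 2 the neighbors lay on both sides of 0, with 6 of 20 below 0 for KD1 against CON and 9 of 20 for KD1 against WT. By side, 1 of 10 at lower and 5 of 10 at higher coordinates were below 0 for KD1 against CON, and 6 of 10 and 3 of 10 for KD1 against WT. CCDC140, the nearest tested gene at higher coordinates, had replicate values of -0.40 and -0.36 against CON. The median of the 20 was 0.27 in KD1 against CON and 0.04 in KD1 vs WT, and 2 of 20 had a lower mean than PAX3 A_23_P502706 in each comparison. In KD1 vs CON those were SERPINE2 and DOCK10, at -1.30 and -0.93, which were named after their values were seen. The neighbors of FOXO3 and FOXO4 had medians of -0.05 and -0.03 in KD1 vs CON, and those of PAX7 had 0.33.

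**Figure D4:**
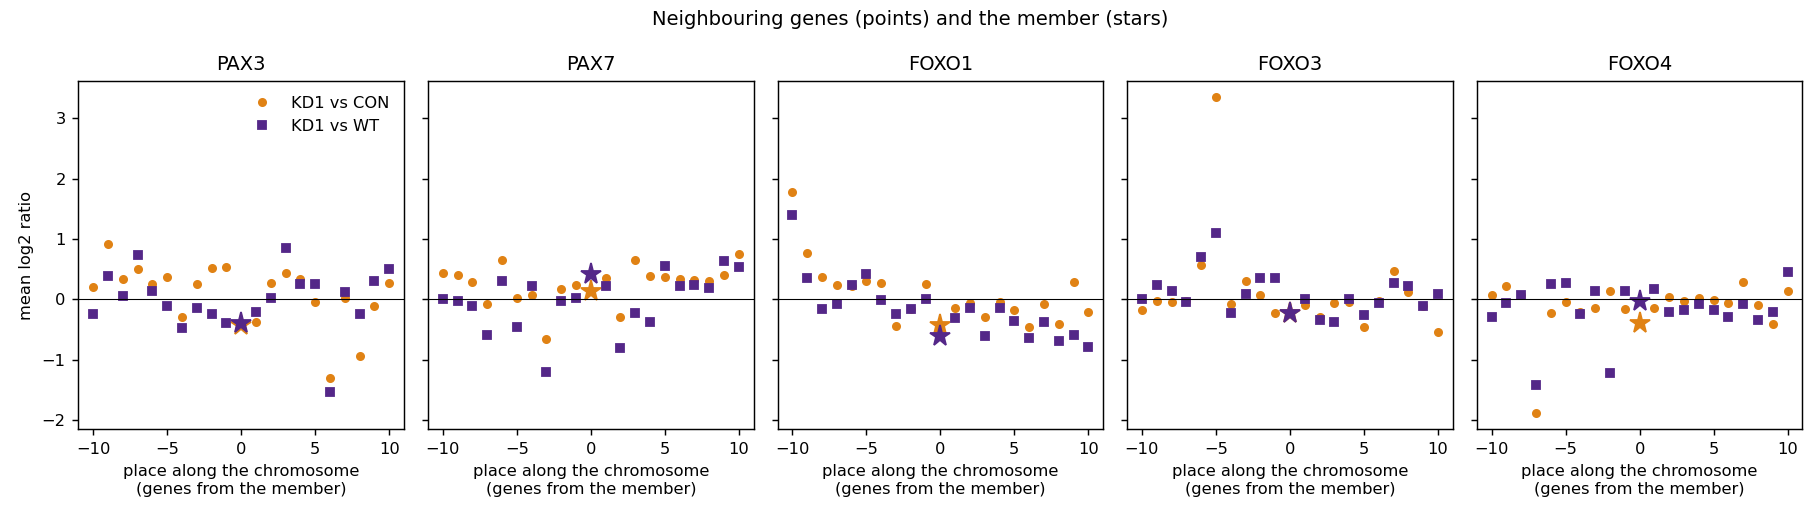
Mean log2 ratio (y axis) of the 10 nearest tested genes on each side of each member, in order along the chromosome (x axis), with orange circles for KD1 vs CON, purple squares for KD1 vs WT and stars for 1 probe of the member. The stars show the brightest probe for PAX3, FOXO1 and FOXO4. For PAX7 and FOXO3 they show A_23_P500985 and A_32_P102062, which were not the brightest, and A_23_P500985 was not tested in the KD1 comparisons. Right of FOXO1 all 10 purple squares are below 0, and the PAX3 and FOXO1 stars both lie below most of their neighbors.

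Of the 100 neighbors, 3 passed the threshold in a comparison, and all 3 did so in KD1 against CON. Among all genes, each by its brightest probe, the share that passed there was 1.96%. It was 1.26% when KD1 was set against WT, and 1.58% between the cultures without the targeting shRNA. Whether the neighbors differed from these shares was not tested. CCNA1, a cyclin of the germ line and the tenth gene from FOXO1, had values of 1.78 in both replicates of KD1 against CON (limma adjusted p = 0.00626) and of 1.34 and 1.47 in KD1 vs WT (limma adjusted p = 0.0261). EDA, the ectodysplasin ligand near FOXO4, had values of -1.88 and -1.90 in KD1 against CON (limma adjusted p = 0.00959) and of -1.62 and -1.20 in KD1 vs WT (limma adjusted p = 0.0436). SOBP near FOXO3 had values of 3.48 and 3.24 in KD1 against CON (limma adjusted p = 0.00876) and of 3.10 and 1.59 in WT vs CON (limma adjusted p = 0.0421). Over the 7 alternative fits, the call against CON was kept in 6 for CCNA1, in 5 for EDA and in 5 for SOBP, with limma adjusted p-values of up to 0.0846, 0.169 and 0.105. The KD1 vs WT calls were kept in 3 for CCNA1 and in 1 for EDA, and the WT vs CON call of SOBP in 1. Each of these counts includes the series table among the fits tried, and it holds the same ratios as those tested here.

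The genes whose ratios were most like those of the members over the 6 replicate values were sought among 11889 genes. For PAX3 A_23_P502706 they were BCR, AARS, STAG2, LHFP and ALG8, with Pearson r between 0.983 and 0.986. For FOXO1 A_23_P151426 they were POLD1, ST3GAL1, ZNF646, MYO9A and FANCI, with r between 0.994 and 0.996. Between these PAX3 and FOXO1 probes r was 0.942, and between PAX3 A_23_P502706 and the PAX3 probe outside the fusion it was -0.31. FOXO1 A_23_P151426 had an r of 0.890 with FOXO3 A_32_P102062, 0.875 with FOXO1 A_24_P22079 and 0.806 with PAX3 A_24_P362595. For PAX3 A_23_P502706 it was 0.920 with PAX3 A_24_P362595, 0.808 with FOXO1 A_24_P22079 and 0.800 with FOXO3 A_32_P102062. The 6 values share extracts, so these correlations describe the pattern and have no test.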

How the data were processed

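Agilent 2-color arrays (whole human genome design) were hybridized with 500 ng of labeled RNA per sample. The authors deposited, per spot, linear intensity values from Agilent Feature Extraction 10.5.1.1 (background-subtracted, detrended, linear and lowess dye-normalized within the array) and a log10 ratio. The series table the authors deposited holds the same ratio on the log2 scale, turned to first over second culture, with 0 unmatched columns. Log2 ratios were computed here from the processed intensities, and dye-swap pairs were averaged to 1 value per replicate.

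Tests used limma 3.58.1 in R 4.3.3 on 6 replicate values (1 coefficient for each comparison), with residual degrees of freedom of 2 because the 3 ratios of a replicate hold 2 independent differences, and Benjamini-Hochberg adjustment over the probes tested, at a threshold of 0.05. The fit was tested on simulated data. Levels per extract are separate-channel values after normalization between arrays (Aquantile), averaged over 4 channels. KD1 arrays of a replicate share a slide, so within-slide values of the KD1 comparisons are the replicate values, and all WT vs CON arrays share another. Nothing in the labels says that the replicates were separate cultures beyond calling them biological, so the p-values measure the spread between these samples. The number of arrays limits the precision: 2 replicates per comparison.

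Genes were named by the array, and 18609 of 19229 RefSeq accessions matched a gene table of GRCh38.p14, used for names only. The brightest probe stood for a gene. Every member probe was named, as were list genes and neighbors past the threshold and the 5 genes most like PAX3 and FOXO1. The list members PAX4, PAX6, PAX8 and the neighbors named below that rule were added after their values were seen. The members and lists were chosen with earlier results of these data known. Alternatives were another background correction and normalization (normexp with loess), median centring, the series table, separate channels without and with a replicate block, slide as a random block, no filter on dim probes, and leaving out each replicate.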

Additional observations from a re-analysis of the deposited data

How the results depend on the processing

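No alternative called a member probe, and the lowest adjusted p over the limma alternatives was between 0.325 and 0.480 in KD1 vs CON, between 0.263 and 0.391 in KD1 vs WT and between 0.355 and 0.550 in WT vs CON. The replicate numbers were not shown to pair the samples: deviations from the culture means correlated with 0.541 for KD1 and CON, -0.07 for KD1 and WT and -0.02 for WT and CON over 21870 probes. Without the replicate block, on separate channels, 0 member probes passed in each comparison, and the calls over all probes went from 390 to 201 in KD1 vs CON, from 259 to 126 in KD1 vs WT and from 366 to 114 in WT vs CON; with a replicate block on extract levels they were 160, 107 and 130. They were 26, 1 and 2 with normexp and loess, 81, 51 and 69 with median centring, 254, 183 and 200 without the filter on dim probes, and 337, 235 and 180 with slide as a random block. With both replicates in the fit, the sign of a member probe turned 4 times, for no probe that was called: FOXO4 A_24_P379165 in KD1 vs WT was 0.075 without the replicate block, PAX7 A_23_P126225 in WT vs CON was -0.062 without and -0.00016 with it, and PAX7 A_23_P500985 in WT vs CON was 0.014 with median centring. Leaving out a replicate turned the sign of 10 member values, among them PAX3 A_23_P209499 in both KD1 comparisons and all FOXO1 and FOXO3 probes in WT vs CON, of 2 differences from PAX3 outside the fusion, both for dimmer probes, and of 6 neighbor medians, and normexp with loess turned the PAX7 neighbor median in KD1 vs WT to -0.016.

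List genes called numbered 3, 1 and 1 in KD1 vs CON, KD1 vs WT and WT vs CON. They were 1, 0 and 0 with normexp and loess and with median centring, and 1 and 0 in the KD1 comparisons without the filter. Neighbor medians moved by more than their replicate SD with normexp and loess for PAX3 (0.20) and PAX7 (0.29) in KD1 vs CON and for FOXO3 in KD1 vs WT (0.00026), and with median centring for FOXO3 in KD1 vs WT (0.018). Leaving out each replicate gave, in KD1 vs CON, medians of 0.20 to 0.26 for PAX3, 0.34 to 0.37 for PAX7, -0.030 to 0.019 for FOXO1 and -0.095 to -0.019 for FOXO4; in KD1 vs WT, -0.22 to -0.16 for FOXO1 and 0.11 to 0.12 for FOXO3; and in WT vs CON, 0.19 to 0.31 for PAX7, 0.22 to 0.28 for FOXO1 and -0.079 to -0.0059 for FOXO3. The cause of these shifts was not tested. The difference between PAX3 A_23_P502706 and PAX3 outside the fusion kept its direction when either replicate was left out, with -0.55 to -0.12 in KD1 vs CON. PAX7 and FOXO4 A_23_P217487 fell short of the negative-control limit on some arrays, and that limit was between 1.81 and 40.6 in Cy3.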
